A study of Drosophila melanogaster with 9 samples.

Results

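A set of 10 genes that encode heat shock proteins or their partners was followed in RNA sequencing of dissected female hearts. They were Hsp22, Hsp23, Hsp26, Hsp27, Hsp67Ba, Hsp67Bc, Hsp68, Hsp83, Hsc70-4 and DnaJ-1, looked up by symbol in a table of 16700 rows, and all 10 were found. The hearts came from mated adult w1118 females, a laboratory strain with white eyes and no transgene. Females on high sugar diet (HSD) received normal diet with 30% sucrose for 10 days. Females on high fat diet (HFD) received normal diet for 7 days and then normal diet with 30% coconut oil for 3 days. Females on normal diet (ND), which holds agar, yeast and cornmeal, stayed on it for 10 days. The labels set the crosses at 25 °C and the feeding at 23 °C for every diet, whereas the methods of the study keep the flies at 25 °C for the first 7 days of feeding and at 23 °C only afterwards. Each diet had 3 libraries, named A, B and C, made from pooled hearts collected on separate days, and the sources used here do not say which letter belongs to which day.

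Heat shock proteins are molecular chaperones, which hold or refold proteins that have lost their shape. Small heat shock proteins bind unfolded proteins without using ATP, proteins of the Hsp70 family refold them with ATP and with J-domain partners such as DnaJ-1, and Hsp90 proteins such as Hsp83 act on kinases, receptors and other clients. Heat shock factor switches on the inducible members within minutes of heat or of other stresses that unfold proteins, while cognate members such as Hsc70-4 are made in unstressed cells all the time. In fly muscle, Hsc70-4 works with the BAG-domain co-chaperone starvin (stv) in the autophagic removal of damaged contractile proteins, and Hsp67Bc is known as a partner of starvin.

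Reads counted on genes ranged from 59941761 to 90069216 per library. Levels are given as RPKM, reads per kilobase of gene relative to the library's reads on genes, scaled between libraries by factors of 0.938 to 1.084. The defining heart markers were present in each library, among them tin at 2.43 to 4.16 RPKM and Hand at 158.8 to 301.7 RPKM. Pooled hearts carry other cells, so fewer cells of a type and less RNA per cell cannot be told apart. The libraries HFD C and ND C stood apart by RNA of the ovary, whose values are given below beside the members.

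Of the 10 genes, 6, all small heat shock protein genes, lie together at cytological position 67B. In the BDGP6 annotation they span 14184 bases of chromosome arm 3L, from 9371511 to 9385694, in the order Hsp67Bc, Hsp22, Hsp26, Hsp67Ba, Hsp23 and Hsp27. The authors aligned to the older dm3 build, so these positions are for orientation. Hsp83 (3L, 3192969 to 3197059) and DnaJ-1 (3L, 5750029 to 5752189) lie elsewhere on that arm. On arm 3R lie Hsp68 (24055080 to 24057310) and Hsc70-4 (15242687 to 15246614).

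The heart libraries held these genes at very different levels. Hsc70-4, the constitutive cytosolic Hsp70 cognate, averaged 1540 RPKM over the 9 libraries, and Hsp83, the fly Hsp90, averaged 1139 RPKM. Next came the cytosolic small heat shock protein gene Hsp26 with 600.5 RPKM, the inducible Hsp70 relative Hsp68 with 487.7 RPKM, and the J-domain gene DnaJ-1 with 330.9 RPKM. Hsp27, whose product is mostly nuclear, averaged 197.3 RPKM and the cytosolic Hsp23 averaged 128.1 RPKM. Each of these 7 genes overlapped in range with its neighbours in this order. Far below, and apart from each other and from Hsp23, were Hsp67Bc with 1.97 RPKM and Hsp67Ba with 0.0853 RPKM. All members together took 0.865% to 1.37% of the reads counted on genes.

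Hsp22, whose product is a mitochondrial small heat shock protein, was listed at 0 reads in all 9 libraries. All of its 1900 exon bases are shared, on the same strand, with CG4456, also known as Hsp67Bb, and that gene held 0 reads in 7 libraries and 1 read in HSD B and in ND C. How the counting treated reads that fall in both genes is not given in the sources used here, so these zeros do not show that Hsp22 was silent. A count of 0 would otherwise allow up to 3 reads, equal to 0.0179 to 0.025 RPKM, and this limit covers counting error only.

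Hsp67Ba lies in a stretch of the table where labels and values are 1 row out of register, and its values were taken with the label realigned. It had 3, 8 and 9 reads in HSD A, B and C, 4, 3 and 27 reads in HFD A, B and C, and 6, 31 and 9 reads in ND A, B and C. As listed, its row read 0.0418 to 0.117 RPKM, against 0.0196 to 0.234 RPKM once realigned. An antisense RNA, asRNA:CR43481, covers 75.9% of its exon bases, and whether the counting used strand is not given in the sources used here. Hsp22 and Hsp67Ba fell below the mean of 0.5 RPKM needed for testing, so 8 of the 10 genes were tested among 8365 genes in all.

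Among the small heat shock protein genes, Hsp23 had 40.3, 97.6 and 156.4 RPKM in HSD A, B and C, 54.2, 75.0 and 250.3 RPKM in HFD A, B and C, and 127.6, 251.8 and 99.3 RPKM in ND A, B and C. The 3 diets overlapped, and libraries of the same diet lay up to 4.62-fold apart, on HFD. Hsp26 had 332.3, 547.5 and 617.8 RPKM on HSD, 377.8, 543.7 and 942.7 RPKM on HFD, and 628.4, 888.2 and 526.3 RPKM on ND, again in the order A, B and C. The highest Hsp26 level was thus in HFD C and the lowest in HSD A, and each diet had libraries inside the range of the others.

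Hsp27 had 80.2, 171.1 and 203.1 RPKM in HSD A, B and C, 122.4, 169.9 and 303.1 RPKM in HFD A, B and C, and 219.2, 344.5 and 161.9 RPKM in ND A, B and C. HSD C, HFD C and ND B were again the highest libraries of their diets. Hsp67Bc had 0.28, 1.25 and 2.36 RPKM in HSD A, B and C, 0.48, 0.67 and 3.31 RPKM in HFD A, B and C, and 2.04, 5.01 and 2.32 RPKM in ND A, B and C. It rested on 24 to 379 reads per library and differed most between its extremes, 18.2-fold between ND B and HSD A.

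Hsp68, the inducible Hsp70 relative, had 253.1, 348.7 and 431.5 RPKM in HSD A, B and C, 343.5, 504.9 and 778.3 RPKM in HFD A, B and C, and 512.8, 780.6 and 435.8 RPKM in ND A, B and C. Every HSD library lay below every ND library, although the highest of HSD and the lowest of ND were close. DnaJ-1, the J-domain partner of Hsp70 proteins, had 246.4, 299.4 and 342.4 RPKM in HSD A, B and C, 302.4, 350.0 and 423.9 RPKM in HFD A, B and C, and 308.2, 412.8 and 292.3 RPKM in ND A, B and C. Its highest library of each diet and its lowest HSD library were those of the small heat shock protein members above 0, over a narrower span of 1.72-fold.

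The constitutive chaperones behaved otherwise. Hsc70-4 had 1610, 1432 and 1498 RPKM in HSD A, B and C, 1654, 1800 and 1634 RPKM in HFD A, B and C, and 1502, 1445 and 1284 RPKM in ND A, B and C. All HFD libraries were above all ND and all HSD libraries. Hsp83 had 1136, 1025 and 1175 RPKM in HSD A, B and C, 1102, 1324 and 1324 RPKM in HFD A, B and C, and 1070, 1164 and 928 RPKM in ND A, B and C, with all 3 diets overlapping. Across the 9 libraries Hsc70-4 spanned 1.40-fold and Hsp83 1.43-fold, close to the median of 1.42-fold over all genes tested.

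**Figure D1:**
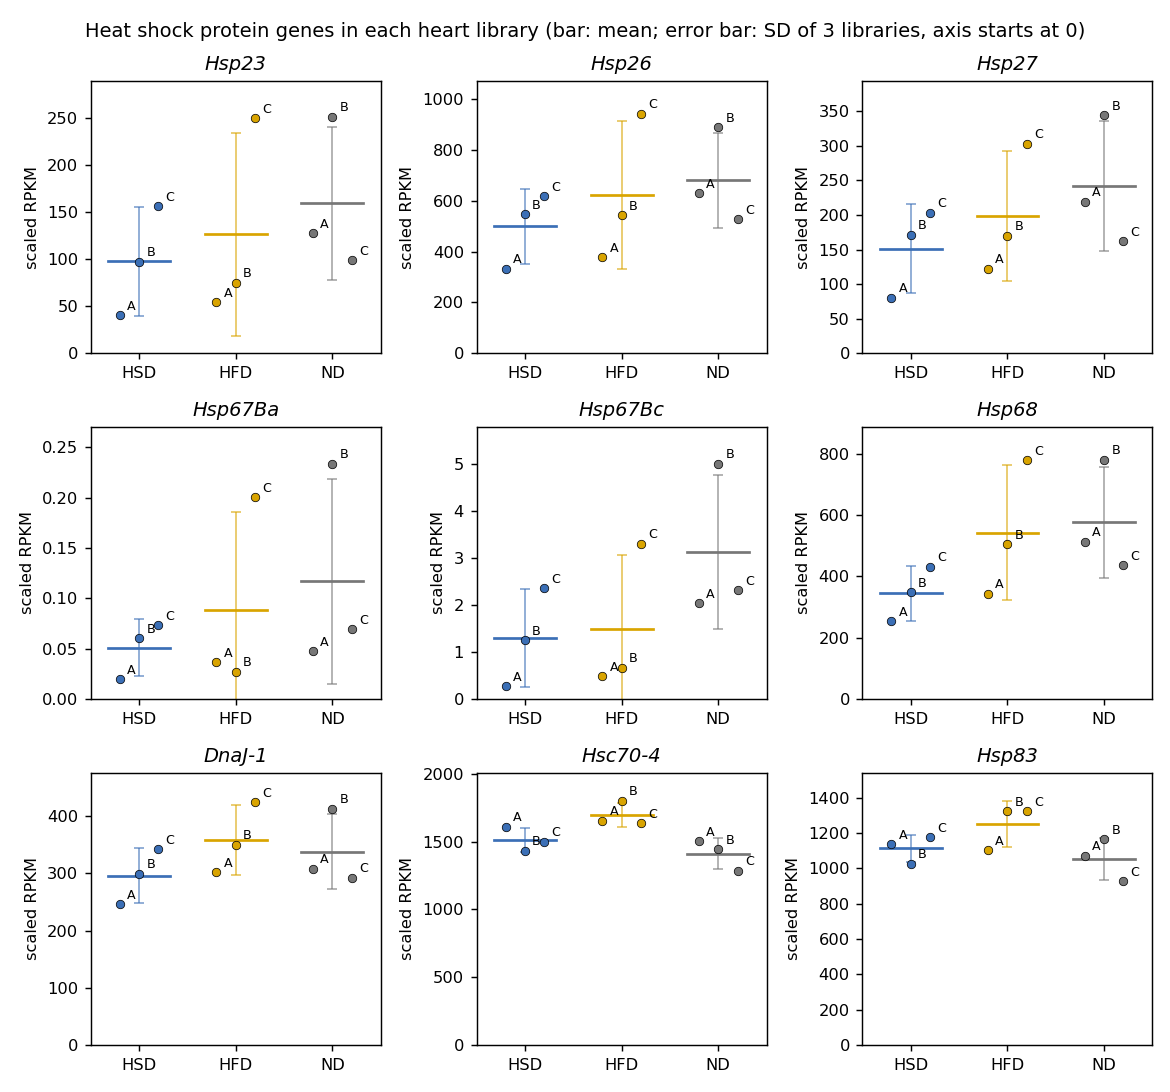
Scaled RPKM (y axis, from 0) of the 9 members above 0 in each heart library, by diet (x axis: HSD, HFD, ND), with a point per library marked by its letter, a bar for the mean and an error bar for the SD of 3 libraries. In 7 panels HSD C, HFD C and ND B are the highest points of their diets, while Hsc70-4 and Hsp83 stay within a narrow range.

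Libraries of the same diet differed in the same order for most members. In 7 of the 9 members above 0 (Hsp23, Hsp26, Hsp27, Hsp67Ba, Hsp67Bc, Hsp68 and DnaJ-1), HSD A was the lowest and HSD C the highest HSD library, HFD C was the highest HFD library and ND B was the highest ND library. This order was read from the members themselves, so its count is a description. Over all genes tested, 21.7% had the HSD part of it, 33.6% had HFD C highest, 34.6% had ND B highest and 5.61% had all 3 parts. The letters did not carry the pattern, since C was the highest on HSD and HFD while B was the highest on ND.

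Some other inducible heat shock genes had the same order. Their lists were drawn up with earlier results of these data known, so this too is a description. The Hsp70Ba, Hsp70Bb, Hsp70Bbb and Hsp70Bc copies encode the main inducible Hsp70 and summed to 23.2, 68.8 and 124.4 RPKM in HSD A, B and C, to 33.6, 31.6 and 138.4 RPKM in HFD A, B and C, and to 44.0, 133.4 and 66.0 RPKM in ND A, B and C. All 4 copies had the full order, but they are nearly identical in sequence, so the split of reads among them is uncertain and they are not independent of each other. Hsp70Aa and Hsp70Ab, further copies of the same gene, held at most 1 read in any library. The co-chaperone gene stv had 63.3, 70.5 and 77.4 RPKM in HSD A, B and C, 61.5, 68.7 and 106.9 RPKM in HFD A, B and C, and 92.9, 119.1 and 76.4 RPKM in ND A, B and C, with the full order too. The heat-induced nuclear RNA Hsromega also had it, at 9.18 to 15.6 RPKM. These were 2 of the 4 genes tested in their list of heat shock factor targets. The polyubiquitin genes Ubi-p63E and Ubi-p5E lacked it, with the highest HSD level of Ubi-p63E in HSD A and the lowest HSD level of Ubi-p5E in HSD B.

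Organelle chaperones lacked the full order, cognate chaperones mostly lacked it, and the co-chaperone genes were mixed. In the list of other Hsp70 and Hsp110 genes, 5 of 9 tested genes had the full order, the 4 Hsp70B copies and the little-expressed Hsc70-1. None of the 4 other small heat shock protein genes tested had it, among them l(2)efl (101.3 to 172.4 RPKM) and CG4461 (20.4 to 39.1 RPKM). CG4461 lies inside the 67B stretch between Hsp22 and Hsp26, yet its lowest library was HFD B and its highest was HSD C. Of the co-chaperone genes 4 of 12 had the full order (STUB1, p23, HIP and HIP-R), against 5.61% of all genes tested. By its parts, the HSD part held for 7 of these 12, HFD C was highest for 8 and ND B for 8. Over all genes tested these parts held for 21.7%, 33.6% and 34.6%. In the lists of mitochondrial, endoplasmic reticulum and chaperonin ring genes none of 4, 8 and 8 had the full order.

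**Figure D2:**
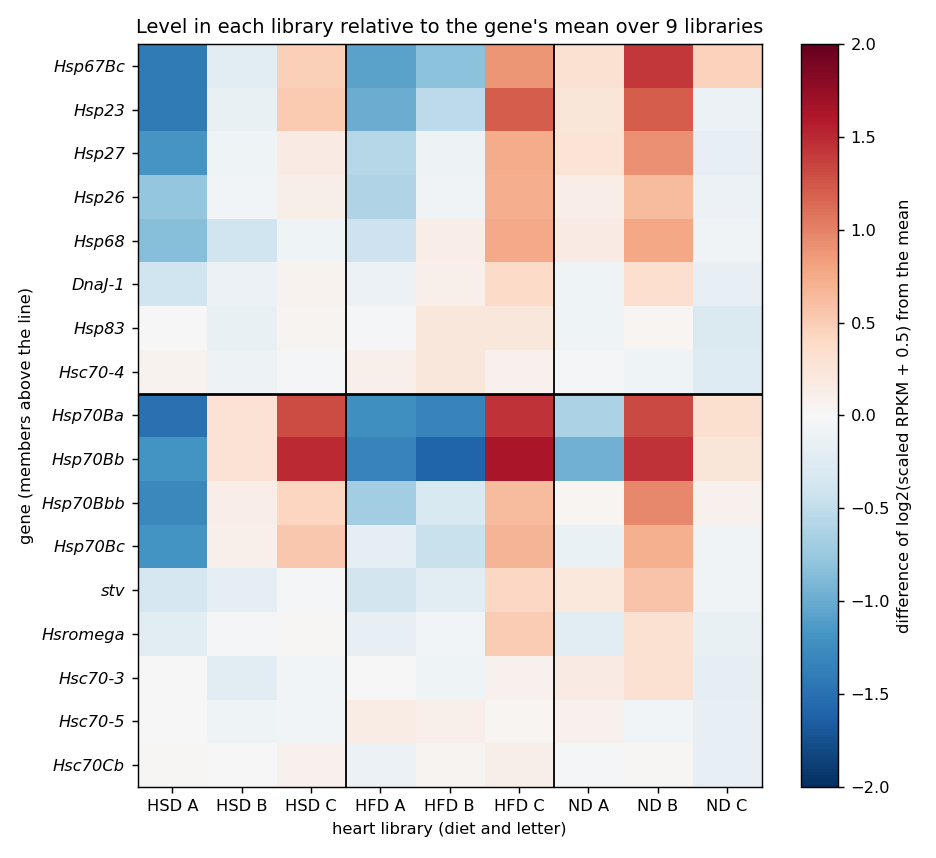
Heat map of log2(scaled RPKM + 0.5) in each library (x axis) minus the gene's mean over the 9 libraries, for the 8 members tested (above the line) and 9 related genes (below it), with red for higher and blue for lower. HSD A is blue and HFD C and ND B are red for the inducible members, the Hsp70B copies and stv, and the rows of Hsp83, Hsc70-4, Hsc70-5 and Hsc70Cb are pale.

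The spread between libraries of the same diet was wide for 5 members and narrower for DnaJ-1, Hsp83 and Hsc70-4. On the log2(RPKM + 0.5) scale, the SD within diets was 0.96 for Hsp23, 0.90 for Hsp67Bc, 0.64 for Hsp27, 0.52 for Hsp26 and 0.48 for Hsp68. These 5 members were above the 95th percentile of all genes tested, which was 0.40, against a median of 0.13. Genes with an SD at least as large made up 1.04% of those tested for Hsp23 and 3.38% for Hsp68. DnaJ-1 had an SD of 0.25, Hsp83 of 0.14 and Hsc70-4 of 0.10. Hsp23, the least read of Hsp23, Hsp26, Hsp27 and Hsp68, still had at least 3024 reads in every library.

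For most members a smaller part of the variation lay between diets than for the median gene tested, though Hsp68 was close to it. With few libraries such a share is above 0 even where diet has no effect. Of the total variation of log2 levels over the 9 libraries, the share that lay between diets was 14.9% for Hsp23, 16.5% for Hsp26, 23.3% for Hsp27, 24.0% for DnaJ-1, 33.0% for Hsp67Bc and 40.1% for Hsp68. The median over all genes tested was 40.6%. Hsc70-4 had the highest share of the members, 67.1%, and Hsp83 had 43.7%.

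**Figure D3:**
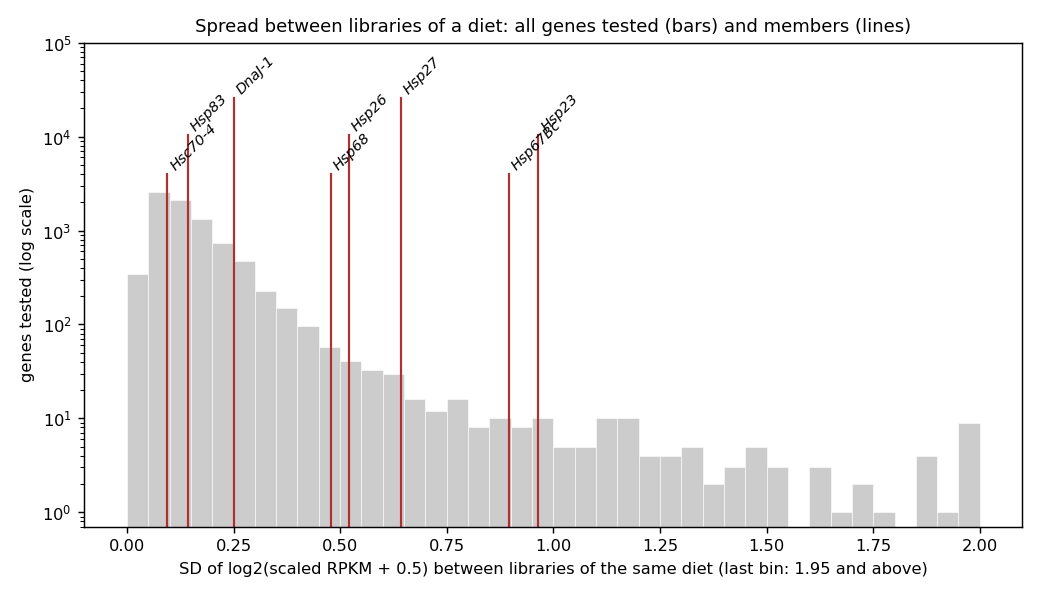
SD of log2(scaled RPKM + 0.5) between libraries of the same diet (x axis) for the 8365 genes tested, as a histogram with a logarithmic count axis, with a line at each member. Hsc70-4 and Hsp83 lie in the bulk of the genes, DnaJ-1 on its shoulder, and the other 5 members in the sparse tail from 0.48 to 0.96.

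HSD was compared with ND to ask which genes a sugar-rich diet changes in the heart. Of the 8 members tested, 0 were called at an adjusted p under 0.05 with a fold change of at least 1.5 (limma with Benjamini-Hochberg adjustment), 0 had an unadjusted p under 0.05, and limma-voom on reads rebuilt from the RPKM also called 0. The background was 276 of 8365 genes called, or 3.30%, and 20.7% of all genes tested had an unadjusted p under 0.05 by limma. The adjusted p of the members ranged from 0.247 to 0.796.

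Of these 8 members, 6 had lower and 2 had higher fitted levels on HSD, with a median log2FC of -0.58 against 0.00 over all genes tested. These sizes rested in part on HSD A and ND B, the lowest HSD and the highest ND library. Without HSD A the log2FC of Hsp23, Hsp26, Hsp27, Hsp67Bc, Hsp68 and DnaJ-1 were -0.25, -0.19, -0.30, -0.61, -0.53 and -0.06, and without ND B they were -0.40, -0.25, -0.42, -0.77, -0.49 and -0.03. Hsp68 averaged 344.4 ± 89.3 RPKM on HSD and 576.4 ± 181.0 RPKM on ND (SD, n = 3 each), a log2FC of -0.73 with a standard error of 0.33 and an adjusted p of 0.247 from limma. It was the only member whose HSD and ND libraries did not overlap, for which the two-sided exact permutation test gave p = 0.1, the smallest value that 3 libraries against 3 allow. Non-overlap of the HSD and ND libraries held for 29.2% of all genes tested, so 1 of 8 members is not above the background.

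The intervals show how little the small heat shock protein genes were resolved between HSD and ND. Hsp23 averaged 98.1 ± 58.1 RPKM on HSD and 159.6 ± 81.1 RPKM on ND (SD, n = 3 each), with a log2FC of -0.79 and a 95% interval from -2.25 to 0.68. For Hsp67Bc the log2FC was -1.11, with an interval from -2.48 to 0.25. Hsp27 had a log2FC of -0.71 and Hsp26 of -0.46, with intervals from -1.69 to 0.28 and from -1.26 to 0.34. The spans include no change as well as decreases of more than 2-fold, so a diet effect of that size was not detectable with these libraries.

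For Hsc70-4, Hsp83 and DnaJ-1 the same comparison was tighter. Hsc70-4 averaged 1513 ± 90.3 RPKM on HSD and 1410 ± 112.6 RPKM on ND (SD, n = 3 each), and its log2FC of 0.10 had a 95% interval from -0.13 to 0.34. Hsp83 had a log2FC of 0.08 with an interval from -0.20 to 0.36. Both intervals lie inside the 1.5-fold limit of 0.585 on the log2 scale. DnaJ-1 had a log2FC of -0.19, with an interval from -0.59 to 0.22.

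The comparison of HFD with ND asked the same of a fat-rich diet, with the same 3 ND libraries. Again 0 of 8 members were called by limma and 0 by limma-voom, against a background of 160 of 8365 genes, or 1.91%. By limma 18.4% of all genes tested had an unadjusted p under 0.05. By both tools 1 of the 8 members did, namely Hsc70-4. It averaged 1696 ± 90.6 RPKM on HFD and 1410 ± 112.6 RPKM on ND (SD, n = 3 each), a log2FC of 0.27 with a standard error of 0.10, a 95% interval from 0.04 to 0.50 and an adjusted p of 0.209 from limma. Every HFD library was above every ND library (two-sided exact permutation p = 0.1), as was true in either direction for 23.3% of all genes tested. With the RPKM left unscaled its log2FC was 0.38 and its adjusted p from limma was 0.0342, still under 1.5-fold, while the median of all genes moved to 0.12 in that setting.

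For the other members the 95% interval of the difference between HFD and ND included 0. Hsp83 averaged 1250 ± 128.3 RPKM on HFD and 1054 ± 118.8 RPKM on ND (SD, n = 3 each), with a log2FC of 0.25 and an adjusted p of 0.328 from limma. Hsp23, Hsp26, Hsp27, Hsp67Bc and Hsp68 had log2FC of -0.55, -0.20, -0.32, -1.06 and -0.12, all with intervals that include 0, and DnaJ-1 had 0.09. The signs for Hsp26 and Hsp68 turned when HFD A or ND B was left out, and that for DnaJ-1 when HFD C or ND C was left out. Hsp68 then stood at 0.17 without HFD A and at 0.12 without ND B.

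HSD and HFD, which both differ from ND, were also set against each other. No member was called by limma (0 of 8) or by limma-voom (0 of 8), and the background was 365 of 8365 genes, or 4.36%. An unadjusted p under 0.05 held for 25.7% of all genes tested by limma and for 0 members by either tool. All 8 log2FC were negative, from -0.05 for Hsp67Bc to -0.61 for Hsp68, with a median of -0.25 against -0.01 over all genes tested. Hsp68 averaged 344.4 ± 89.3 RPKM on HSD and 542.3 ± 219.8 RPKM on HFD (SD, n = 3 each; adjusted p = 0.284 from limma). Hsc70-4 had a log2FC of -0.16 and was the only member whose libraries did not overlap, against 29.9% of all genes tested. Without HSD A, the log2FC of Hsp23, Hsp26, Hsp27 and Hsp67Bc turned to 0.29, 0.009, 0.015 and 0.46. Without HFD C, those of Hsp23, Hsp26 and Hsp67Bc turned to 0.41, 0.09 and 0.56.

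**Figure D4:**
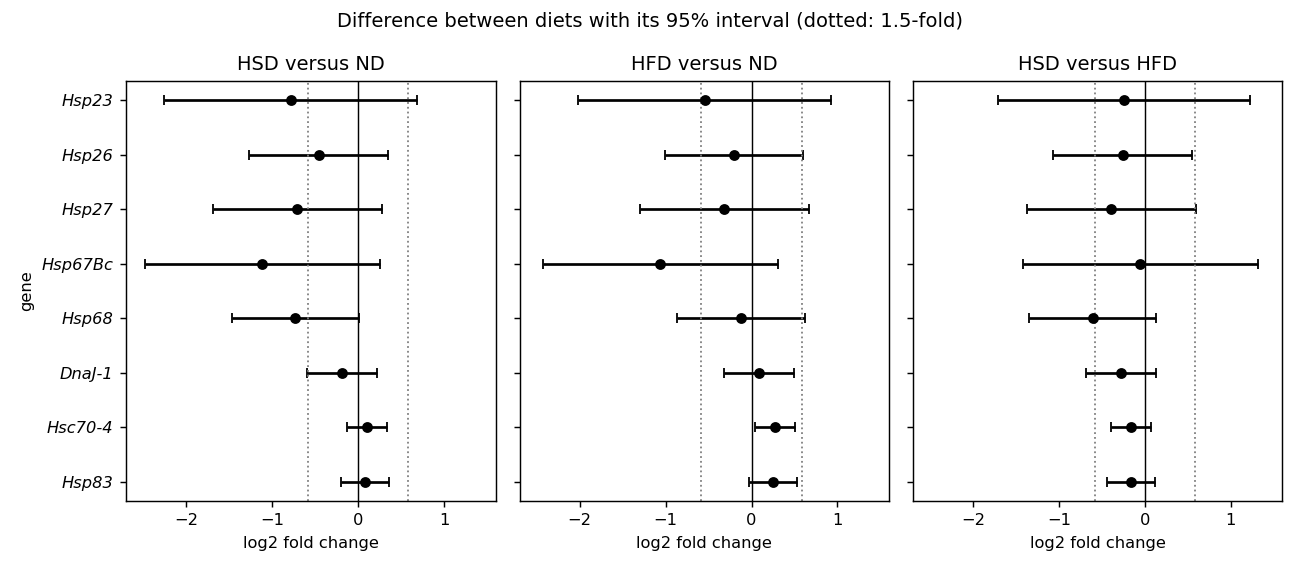
Log2 fold change (x axis, first-named diet over second) of the 8 members tested in the 3 comparisons, each point with its 95% interval from the fit, and dotted lines at 1.5-fold. The intervals of Hsp23 and Hsp67Bc run over more than 2.5 log2 units, those of Hsc70-4 and Hsp83 over less than 0.6, and only that of Hsc70-4 on HFD versus ND leaves out 0.

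Chaperone and stress genes outside the 10 were counted from 8 lists. Of their 66 distinct genes with a row, 57 were tested, and limma called 0 in each comparison, as did limma-voom. Without ND B limma called 1, CG7409, in both comparisons with HSD. At an unadjusted p under 0.05 limma had 12 of them for HSD versus ND, 12 for HFD versus ND and 10 for HSD versus HFD, against 20.7%, 18.4% and 25.7% of all genes tested. The chaperonin ring, or CCT complex, folds actin and tubulin. For all 8 CCT genes each HFD library was above each ND library, where non-overlap in either direction held for 23.3% of all genes tested. The gap was small for CCT7, with 49.4 RPKM in HFD A against 49.3 RPKM in ND B. ND C was the lowest library for all 8 CCT genes, which encode parts of the same complex and may not vary independently. Their median log2FC was 0.24 against 0.02 over all genes tested, and 7 of them had an unadjusted p under 0.05. CCT4 averaged 43.3 RPKM on HFD and 36.4 RPKM on ND, a log2FC of 0.25 with an adjusted p of 0.0575 from limma. For HSD versus ND its log2FC was 0.23 with an adjusted p of 0.0436 from limma, below the 1.5-fold limit. CCT5, CCT8 and CCT6, the most expressed, had log2FC of 0.22, 0.22 and 0.24 for HFD versus ND. All 8 log2FC of CCT genes against ND were positive on both diets, also with unscaled and with quantile-normalized RPKM. Unscaled RPKM also raised the median of all genes, to 0.04 for HSD versus ND and 0.12 for HFD versus ND, so positive signs say little there.

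The Hsp70B copies all had negative log2FC against ND, with -0.31, -0.05, -0.60 and -0.36 for Hsp70Ba, Hsp70Bb, Hsp70Bbb and Hsp70Bc on HSD and -0.71, -0.68, -0.48 and -0.15 on HFD, and adjusted p from limma of 0.566 to 0.988. For HSD versus ND, the 9 other Hsp70 and Hsp110 genes tested had a median log2FC of -0.17, 8 of them negative, and for HFD versus ND of -0.10. Without HSD A the median for HSD versus ND was 0.113, with 6 positive and 3 negative, and without ND B it was -0.011, with 4 positive and 5 negative. Without ND B the median for HFD versus ND was 0.01. The most expressed of them, the endoplasmic reticulum cognate Hsc70-3, the Hsp110 gene Hsc70Cb and the mitochondrial cognate Hsc70-5, had log2FC of -0.19, 0.10 and -0.005 for HSD versus ND. Beside stv, whose log2FC was -0.43 for HSD versus ND (adjusted p = 0.319 from limma), the polyubiquitin genes Ubi-p63E and Ubi-p5E had log2FC of -0.06 and 0.21. Among the 12 co-chaperone genes tested, p23, which assists Hsp90, averaged 392.6 RPKM on HSD and 317.0 RPKM on ND (log2FC 0.32, adjusted p = 0.114 from limma), with no overlap of libraries. Tpr2, a J-domain partner of Hsp70 and Hsp90, had a log2FC of 0.25 in that comparison (adjusted p = 0.105 from limma), and the J-domain gene Droj2, at 225.6 RPKM on HSD and 222.5 RPKM on ND, one of 0.02. The J-domain gene jdp averaged 6.84 RPKM on HFD and 9.61 RPKM on ND (log2FC -0.47, adjusted p = 0.0505 from limma). Of the other small heat shock protein genes, CG7409 averaged 4.41 RPKM on HSD and 7.33 RPKM on ND (log2FC -0.65, adjusted p = 0.081 from limma). Without ND B, CG7409 was called lower on HSD than on ND (log2FC -0.85, adjusted p = 0.0284 from limma) and lower on HSD than on HFD (log2FC -0.63, adjusted p = 0.0416 from limma). With all libraries, the more expressed l(2)efl, CG14207 and CG4461 had log2FC of 0.06, 0.06 and 0.20 for HSD versus ND.

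The genes whose levels followed the members most closely were sought over the 9 libraries. The measure was Pearson's r of a gene's log2 level with the mean standardised log2 level of the 8 members tested, and these genes were picked for a high r, so no p is given. Outside the 10, the closest were Mst85C (r = 0.93, rho = 0.98), Tsp42En (r = 0.91), lncRNA:CR44331 (r = 0.89), PEK (r = 0.89), Culd (r = 0.88), CG5290 (r = 0.87), SmydA-3 (r = 0.86), Hsromega (r = 0.86), xmas (r = 0.86) and CG13123 (r = 0.86). Tsp42En encodes a tetraspanin, PEK a kinase of the unfolded protein response and xmas a part of an mRNA export complex. Their spans ran from 1.17-fold between lowest and highest library for PEK to 2.12-fold for CG13123. These were smaller than the spans of Hsp23, Hsp26, Hsp27, Hsp67Bc and Hsp68. Leaving out HSD A and HFD C, the libraries farthest from the median of the members' mean, changed r to between 0.64 for CG13123 and 0.94 for xmas. The reads of xmas were not whole at its annotated length, so its row may not match the annotated gene. Of the members, DnaJ-1 had the highest r with the mean that includes it, 0.98, and Hsc70-4 the lowest, 0.12.

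Markers of the cells in and around the heart were set beside the members by library. The 6 small heat shock protein members together summed to 453.1, 817.5 and 979.8 RPKM in HSD A, B and C, to 554.9, 789.4 and 1500 RPKM in HFD A, B and C, and to 977.2, 1490 and 789.9 RPKM in ND A, B and C. The 9 heart markers summed to 1068, 1368 and 1495 RPKM in HSD A, B and C, to 1537, 1071 and 1405 RPKM in HFD A, B and C, and to 1357, 1416 and 1150 RPKM in ND A, B and C. On HSD the heart markers and the small heat shock protein members thus had the same order of libraries, and 8 of 9 heart markers (tin, tup, mid, H15, Mhc, Mlc2, Tm1 and Sur) were lowest in HSD A and highest in HSD C. Both sums also shared their order on ND, highest in ND B and lowest in ND C. On HFD the sums differed, with HFD A the highest for heart markers and the lowest for the small heat shock protein members. By gene, 4 of 9 heart markers (Hand, tup, H15 and Sur) were highest in HFD C, against 33.6% of all genes tested. The part of heart muscle RNA in the members' order was not tested.

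RNA of the ovary was highest in a single library for each of its lists. The 10 follicle cell and eggshell markers summed to 10.2 to 76.1 RPKM on HSD, 12.0 to 19.0 RPKM on HFD and 56.7, 131.6 and 1441 RPKM in ND A, B and C. The 6 germline and nurse cell markers summed to 16.5 to 20.6 RPKM on HSD, to 22.1, 16.9 and 43.3 RPKM in HFD A, B and C, and to 19.2 to 22.9 RPKM on ND. The germline marker osk had 10.1 RPKM in HFD C and 0.36 and 0.32 RPKM in HFD A and B, so the library with the most germline RNA on HFD was also the highest for 7 members. In ND B, the highest ND library for 8 members, osk stood at 0.97 RPKM and bcd at 0.04 RPKM. Both were highest on ND in ND C, with osk at 3.61 RPKM and bcd at 0.67 RPKM. ND C was the lowest ND library for Hsp23, Hsp26, Hsp27, Hsp68, Hsp83, Hsc70-4 and DnaJ-1. The germline sums on ND were mostly grk, at 18.7, 18.3 and 16.0 RPKM in ND A, B and C. The log2FC of Hsp68 on HFD versus ND was -0.12 with all libraries and -0.43 without HFD C. Members called were 0 with and without HFD C, so that count cannot speak to ovary RNA. The part of ovary RNA in the members' levels was not tested.

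Some marker genes of other cells had the members' full order of libraries, namely H15 and Sur (2 of 9 heart markers), FASN3 and CG18609 (2 of 4 oenocyte markers), eater (1 of 6 hemocyte markers) and elav (1 of 3 neuron markers tested). FASN3, a fatty acid synthase gene of oenocytes, had 1053, 1154 and 1529 RPKM in HSD A, B and C, 513.0, 470.7 and 754.6 RPKM in HFD A, B and C, and 712.1, 1471 and 1228 RPKM in ND A, B and C. Hemocyte markers summed to 576.1, 724.6 and 792.7 RPKM in HSD A, B and C, to 769.2, 656.5 and 639.8 RPKM in HFD A, B and C, and to 798.7, 878.9 and 780.2 RPKM in ND A, B and C. They thus had the members' order on HSD and were highest in ND B, while HFD C was their lowest HFD library. The 6 pericardial nephrocyte markers summed to 463.0 to 655.9 RPKM on HSD, 489.6 to 698.6 RPKM on HFD and 635.6 to 724.3 RPKM on ND, with HSD A the highest HSD library. Fat body markers summed to 10150 to 12270 RPKM on HSD, 7544 to 8515 RPKM on HFD and 17150 to 23880 RPKM on ND, and oenocyte markers to 53300 to 63770 RPKM on HSD, 46730 to 58120 RPKM on HFD and 37010 to 50980 RPKM on ND. Most of the first sum was Yp1, with means of 10000, 6994 and 17920 RPKM on HSD, HFD and ND. Most of the second was Cyp4g1, with 53990, 48100 and 39080 RPKM. Of 5 fat body markers tested, limma called Lsp2 and Yp1 lower than on ND for both diets. Their log2FC were -3.963 and -0.833 on HSD and -5.685 and -1.345 on HFD. Only 1, Lsp1beta, had a higher fitted level on HSD than on ND (log2FC 0.67, adjusted p = 0.605 from limma), with overlapping libraries. Of 4 oenocyte markers, none was called against ND. Only 1, FASN3, had a lower fitted level on HFD than on ND (log2FC -0.94, adjusted p = 0.117 from limma), with overlapping libraries. Gut markers stayed at or below 13.2 RPKM in sum and neuron markers at or below 5.67 RPKM. The part of these cells in the members' levels was not tested.

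**Figure D5:**
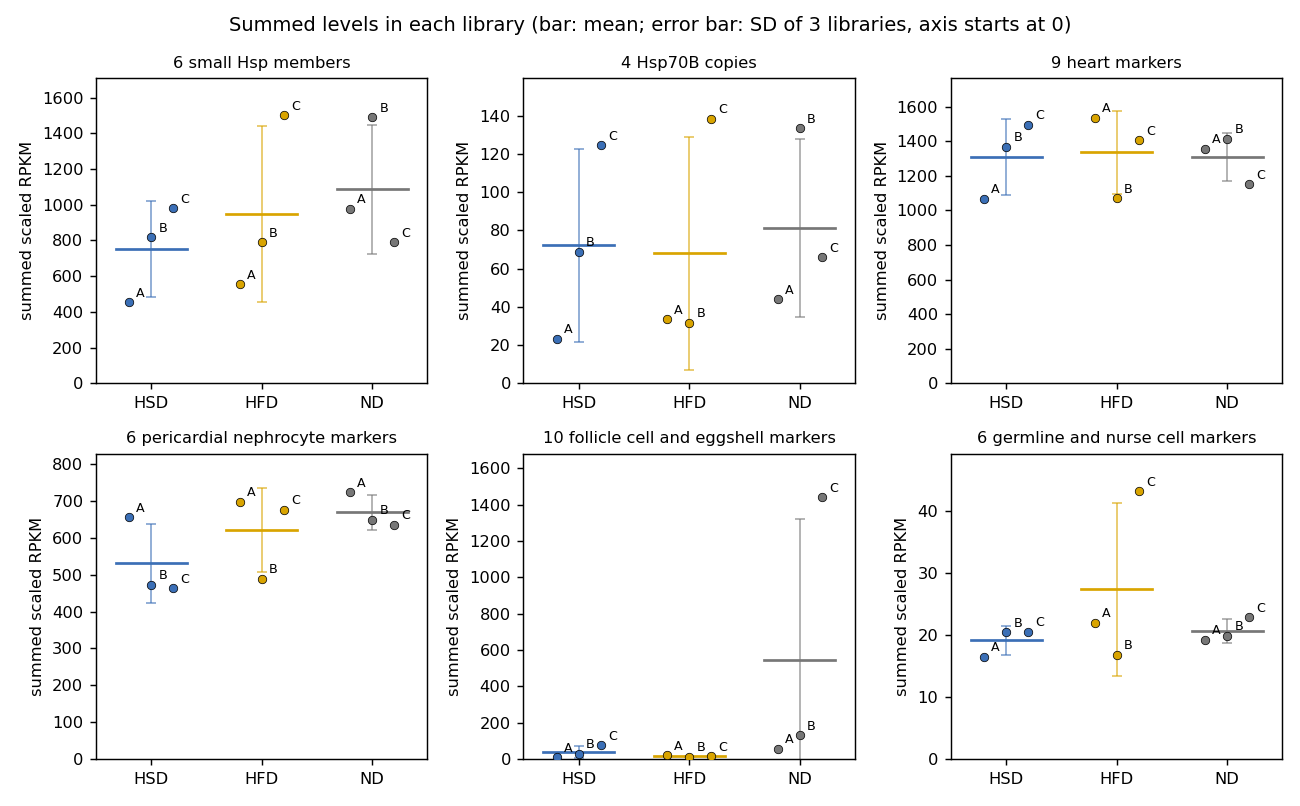
Summed scaled RPKM (y axis, from 0) of 2 groups of heat shock genes and 4 marker lists in each library, by diet (x axis: HSD, HFD, ND), with a point per library marked by its letter, a bar for the mean and an error bar for the SD of 3 libraries. HSD C, HFD C and ND B lead both heat shock panels, HFD C leads the germline panel at 43.3 RPKM and ND C the eggshell panel at 1441 RPKM.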

How the data were processed

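RNA from pooled hearts was sequenced in 9 libraries, 3 per diet, grouped as labelled. The labels give 15 hearts per library and the study's methods another number. The authors trimmed the reads, aligned them to dm3 with Subread 1.6.1, counted them with featureCounts 1.6.1, updated identifiers to dm6. They deposited 1 table of RPKM, in which 28.4% of cells have a decimal comma, read here as a point. The step from counts to RPKM is not given in the sources used here. Reads behind the deposited RPKM were rebuilt with BDGP6 gene lengths, counting mates separately, and came out whole (within 0.05) in all libraries for 95.6% of 13728 rows. In 9 stretches of the table labels and values are out of register by a few rows, and labels were realigned there (95.8% of rows whole, against 18.8% as listed).

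RPKM were scaled by the median of ratios, and genes averaging 0.5 RPKM or more were tested as log2(RPKM + 0.5) in 1 fit of the 3 diets with limma 3.58.1 (R 4.3.3), which understates fold changes of low genes. Calls required both a 1.5-fold difference and p below 0.05 after Benjamini-Hochberg adjustment. The fit was tested on simulated data, and Python 3.11.15 drew the figures. Members and lists were chosen with earlier results of these data known. Named genes were all members, the genes of each list that were called or else its 3 most expressed, and the 10 most alike by r. Others named for a small p, an order of libraries or a position were picked with their values in view. The list symbols Hsf, Hsbp1, Hop, Ahsa1, l(2)tid, Calr and nos were not analysed here, nor were raw reads or promoter and protein sequences. Alternatives were unscaled and quantile-normalized RPKM, pseudocounts of 0.1 and 1, no filter and a mean of 2 RPKM, no variance trend, only the 6 libraries compared, a replicate block, each library left out, limma-voom on rebuilt reads and no fold threshold.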

Additional observations from a re-analysis of the deposited data

How the results depend on the processing

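No alternative called a member: the count stayed at 0 of 8 in every comparison, with unscaled or quantile-normalized RPKM, either pseudocount, no filter, a mean of 2 RPKM (7 members, without Hsp67Bc), no variance trend, only the 6 libraries compared, limma-voom, no fold threshold, a replicate block or any library left out. Of 453 recomputed member fold changes, 438 kept their sign and 15 did not, 14 of these in fits without a library. The remaining one was Hsp67Bc for HSD versus HFD, at 0.022 with quantile normalization, against -0.05. Without single libraries, log2FC ranged from -0.01 to 0.16 for Hsp83 (HSD versus ND), from -0.55 to 0.11, -0.43 to 0.17 and -0.039 to 0.24 for Hsp26, Hsp68 and DnaJ-1 (HFD versus ND), and from -0.68 to 0.42, -0.57 to 0.093, -0.69 to 0.015 and -0.49 to 0.56 for Hsp23, Hsp26, Hsp27 and Hsp67Bc (HSD versus HFD). Genes called over the whole table ranged from 106 to 297 (HSD versus ND), 44 to 164 (HFD versus ND) and 236 to 437 (HSD versus HFD) without single libraries, against 276, 160 and 365. They fell by over 1.5 times without HSD B in all 3 comparisons, without ND A or ND C in both comparisons with ND, without HSD C for HSD versus ND, and without HFD A or HFD B for HFD versus ND. With no fold threshold they were 559, 247 and 788, and for HFD versus ND 81 with no filter and 105 with only the 6 libraries of both diets. The cause was not tested. Labels as listed touch only Hsp67Ba, which was not tested, so no fold change could be recomputed for it.

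The diets share the letters A, B and C, but same-lettered libraries did not deviate together (r of -0.25 to 0.27 over genes), so the letters were not taken as pairs. With a replicate block, 282 (HSD versus ND), 161 (HFD versus ND) and 377 (HSD versus HFD) genes were called, and 0 members.

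Reads were few for Hsp22 (0), Hsp67Ba (3 to 31) and Hsp67Bc (24 to 379). For the members tested, the intervals rest on the spread between 3 libraries per diet. Counting error was not separated from that spread.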

Other observations

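Chaperones of other compartments differed little between diets. In mitochondria, Hsp60A averaged 105.3 RPKM on HFD and 92.5 RPKM on ND (log2FC 0.19), Hsp10 had a log2FC of 0.16, and the Hsp90 relative Trap1 averaged 28.2 RPKM on HFD and 23.7 RPKM on ND (log2FC 0.25, adjusted p = 0.0999 from limma). All 4 mitochondrial genes tested had a positive log2FC for HFD versus ND and none was called. In the endoplasmic reticulum, ERp60, a protein disulfide isomerase, averaged 219.5 RPKM on HFD and 268.8 RPKM on ND (log2FC -0.29, adjusted p = 0.0985 from limma). Pdi, another such enzyme, had a log2FC of -0.25 for HSD versus ND (adjusted p = 0.299 from limma), and the lists' Hsc70-3 one of -0.19. Of the 8 genes tested there, 7 had a negative log2FC for HFD versus ND, with a median of -0.11 against 0.02 over all genes tested. With unscaled RPKM 4 were positive and 4 negative, with a median of -0.003 against 0.12 over all genes tested.

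Early response and JNK target genes, which many tissues switch on after injury or stress, were not called either. Thor, a translation repressor, averaged 726.9 RPKM on HFD and 822.5 RPKM on ND (log2FC -0.18), Gadd45 had a log2FC of 0.05 there, and the Jun gene Jra one of 0.32 (adjusted p = 0.314 from limma). Atf3 averaged 13.1 RPKM on HSD and 10.1 RPKM on HFD, a log2FC of 0.36 with an adjusted p of 0.0152 from limma, under the 1.5-fold limit. Of the 9 genes tested in this list, 1, Atf3, had the order of libraries that 7 members shared. By its parts, 8 had ND B as the highest ND library, against 34.6% of all genes tested. The HSD part held for 2 and HFD C was the highest HFD library for 2.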
